A study of Mus musculus with 12 samples.

Results

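The 10 genes Ccn1, Ccn2, Ankrd1, Crim1, Ajuba, F3, Ptpn14, Axl, Asap1 and Myof, a commonly used set of direct targets of YAP and TEAD, were followed through 12 ATAC-seq peak lists of mouse cells. ATAC-seq uses a transposase that inserts sequencing adapters into accessible DNA, and a peak is a stretch where insertions pile up above their surroundings. Overlapping peaks of all libraries (1 bp or more) were merged into regions, and a region belonged to a gene when that gene was the nearest protein-coding gene within 100 kb. The rule used names and positions only, and it gave 231 regions of 136498 that had a gene within that distance, out of 153346 in all. A library calls a region when one of its peaks overlaps it.

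YAP and its relative TAZ (Wwtr1) are coactivators that bind no DNA themselves. They reach their targets through the TEAD factors, which recognise the letters CATTCC, often at distal enhancers and often beside AP-1 sites. The kinases LATS1 and LATS2 of the Hippo pathway keep YAP and TAZ out of the nucleus, and in mesenchymal cells a stiff matrix, cell spreading and actin tension release them.

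The labels describe the cells as MSCLCs, and the series title places them among mesenchymal stem cells of bone. EF (n = 4), EF_IGF1 (n = 2), EF_IGF1_xeno (n = 1), Wt_IGF1 (n = 1) and Wt (n = 4) are the genotype labels. The title speaks of YAP1, IGF-1 and EWS::FLI1 (the chimeric transcription factor that drives Ewing sarcoma), and the design text writes the EF cells as EFPrx1, with the forms ha-EFPrx1 and hr-EFPrx1. How the fusion was expressed, how IGF1 was given, what xeno stands for and the age of any animal were not given in the sources used here. By their titles EF replicates 1 and 3 and EF_IGF1 replicate 1 were of line S_220, and EF replicates 2 and 4, EF_IGF1 replicate 2 and EF_IGF1_xeno of line S_221. Wt_IGF1 and Wt replicate 3 were both titled BM, and the other Wt libraries each had a name of their own. Nothing in the labels says that replicates were separate animals, so the spread between libraries may be technical.

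Peaks listed per library numbered 27332 to 67340 in EF, 59325 and 63506 in EF_IGF1, 43416 in EF_IGF1_xeno, 83718 in Wt_IGF1 and 7748 to 69703 in Wt. Wt replicate 1 stood apart with 7748 peaks. Wt replicate 2 called 65.0% of the regions of 10 hematopoietic marker genes, against 8.13% in Wt replicate 1 and up to 40.7% in the other libraries. Regions of 12 mesenchymal marker genes were called at 24.4% in Wt replicate 2, 0.775% in Wt replicate 1 and between 18.6% and 55.4% elsewhere. Of all regions with a gene, Wt replicate 2 called 41.0% and Wt replicate 1 5.37%. Both thus called hematopoietic marker regions above that share and mesenchymal ones below it. Every other library called hematopoietic marker regions below its share of all regions with a gene. EF replicates 1 and 2 and Wt replicates 1 and 2 ran on flowcell BSF_0654, and BSF_1013 carried the remaining 8 libraries. EF_IGF1 replicate 1 is titled line S_220 but shared 77 of its 93 called target regions with EF replicate 4 of line S_221, against 53 with EF replicate 3 of its own line, so it is treated below as the library labelled S_220. EF replicate 4 listed more peaks than EF replicate 3, and the part of list length in this difference was not tested.

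Promoter sequences of 8 of the 10 genes were at hand from RefSeq (GRCm38.p6). The TEAD letters CATTCC, or GGAATG on the other strand, stood within 250 bases before the start in 6 of these 8 genes (Ajuba, Ankrd1, Axl, Ccn1, Crim1 and Ptpn14), against 11.6% of 21044 promoters. Ajuba and Ankrd1 held 2 copies each. The AP-1 letters TGANTCA stood in F3 alone of the 8, with 2 copies, against 6.17% of promoters, and the CArG box bound by SRF stood in none, against 1.4%. The 5 windows below belong to the genes with a gained region just past the start in the results that follow. Each is written 5′ to 3′ in the direction of transcription, with the TEAD letters (AP-1 letters in F3) in capitals. They lie at chr19:36119845-36120094, chr14:54577662-54577911, chr3:145649986-145650235, chr7:25788734-25788983 and chr3:121723287-121723536, on the minus strand except F3, which is on the plus strand. A match describes the letters in the window and does not show that a factor was bound.
Ankrd1: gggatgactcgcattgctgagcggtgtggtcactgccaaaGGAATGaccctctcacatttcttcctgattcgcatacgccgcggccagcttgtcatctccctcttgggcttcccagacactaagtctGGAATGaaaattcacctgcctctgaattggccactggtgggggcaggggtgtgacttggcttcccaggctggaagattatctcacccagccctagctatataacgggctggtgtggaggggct
Ajuba: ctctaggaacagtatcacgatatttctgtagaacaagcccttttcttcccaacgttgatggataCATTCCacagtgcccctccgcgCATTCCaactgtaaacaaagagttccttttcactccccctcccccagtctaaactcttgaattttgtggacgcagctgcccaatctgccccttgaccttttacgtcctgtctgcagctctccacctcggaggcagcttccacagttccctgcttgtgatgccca
Ccn1: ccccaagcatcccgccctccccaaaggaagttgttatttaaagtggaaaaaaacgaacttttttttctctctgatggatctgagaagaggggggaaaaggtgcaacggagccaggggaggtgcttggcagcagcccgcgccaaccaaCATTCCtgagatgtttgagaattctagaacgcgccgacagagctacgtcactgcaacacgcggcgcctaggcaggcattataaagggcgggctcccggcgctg
Axl: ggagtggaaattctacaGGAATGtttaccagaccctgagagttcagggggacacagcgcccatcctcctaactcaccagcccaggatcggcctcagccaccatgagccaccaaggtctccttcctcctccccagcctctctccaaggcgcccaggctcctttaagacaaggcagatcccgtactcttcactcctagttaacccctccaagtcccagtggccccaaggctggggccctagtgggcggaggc
F3: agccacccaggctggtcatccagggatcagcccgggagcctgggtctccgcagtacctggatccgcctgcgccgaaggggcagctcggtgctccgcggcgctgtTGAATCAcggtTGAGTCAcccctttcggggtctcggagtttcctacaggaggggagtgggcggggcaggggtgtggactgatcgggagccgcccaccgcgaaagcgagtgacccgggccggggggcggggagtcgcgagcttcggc

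The merged region over the promoter window was called in 11 of 12 libraries for Ccn1, Crim1, F3 and Myof, all but Wt replicate 1. Such a region can be wider than the window, so a library's own peak may lie beside it. For Ajuba and Axl the region was called in 10, all but EF replicate 2 and Wt replicate 1, and for Ptpn14 in 10, all but Wt replicates 1 and 2. Ankrd1, which encodes a nuclear ankyrin-repeat protein of striated muscle and stretched cells, was the exception. Its start region (chr19:36119679-36120405) was called in 8 libraries, namely EF replicates 2 and 4, both EF_IGF1 libraries, EF_IGF1_xeno, Wt_IGF1 and Wt replicates 3 and 4. It was among the top 2.57% and 3.26% of peaks in the 2 EF_IGF1 libraries and the top 7.75% in EF_IGF1_xeno, ranked within each list by the authors' −log10 p. It ranked in the top 8.31% of EF replicate 4, the top 18.5% of Wt_IGF1 and the top 24.4% and 60.4% of Wt replicates 4 and 3. Lists of different length make such ranks a description of each list and no comparison between them. For Ccn2 the region over the lower end of the gene interval (chr10:24595209-24596084) was called in 11 libraries, all but Wt replicate 1.

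Of the 231 regions, 160 overlapped a gene interval of the set and 71 lay outside, 38 of these more than 20 kb away. Whether those inside genes were exonic or intronic was not analysed here. The matricellular genes Ccn1 and Ccn2 and the nuclear Ankrd1 are short and had most regions outside the gene (14 of 16, 8 of 10 and 12 of 15). Crim1, Ptpn14, Asap1 and Myof are long, from 144542 to 296102 bp, and had most inside. Called in 10 or more libraries were 39 regions (16.9%, against 14.0% of all regions with a gene), and called in 1 library 71 (30.7%, against 35.7%). A single target region was called in all 12, inside Asap1 (chr15:64311547-64313083), or 0.433% against 4.21% of all regions. In contrast, 18 regions (7.79%, against 2.17%) were called in all 10 libraries other than Wt replicates 1 and 2 and in neither of these.

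**Figure D1:**
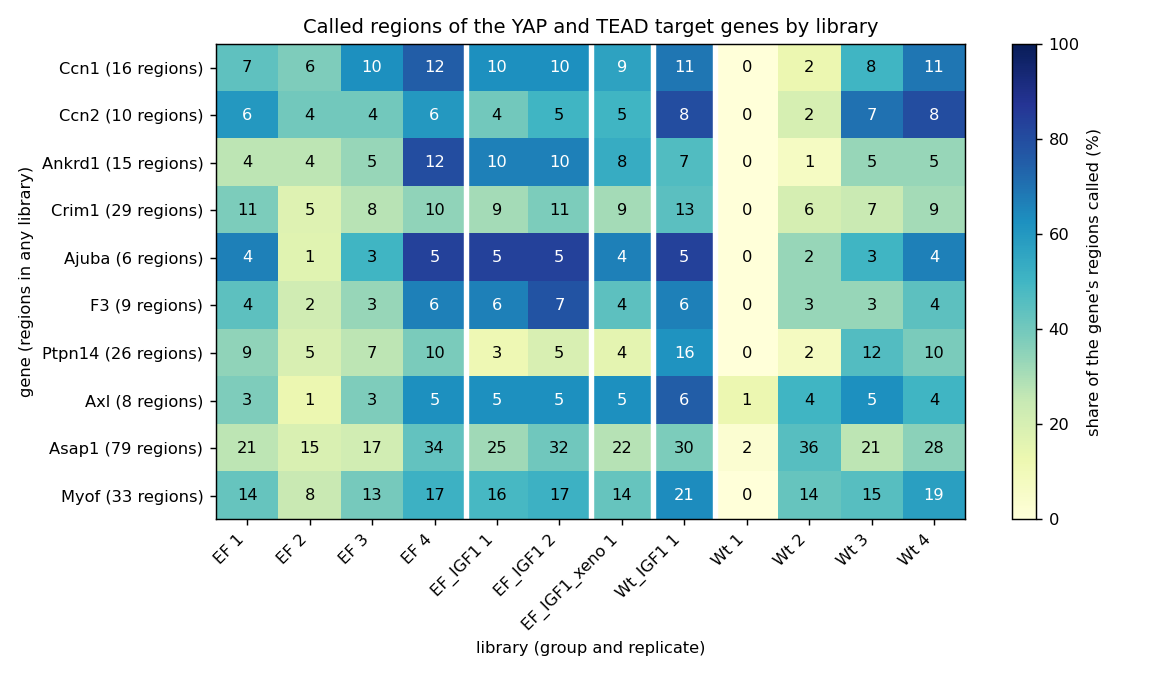
Called regions of each target gene (rows) in each of the 12 libraries (columns, by group and replicate); the number is the count of called regions, and the colour its share of the gene's regions in percent. Wt replicate 1 is at 0 for 8 genes, and Ankrd1 has 12, 10, 10 and 8 in EF replicate 4, EF_IGF1 replicates 1 and 2 and EF_IGF1_xeno, against 0 to 5 in Wt.

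Target regions called numbered 83, 51, 73 and 117 in EF, 93 and 107 in EF_IGF1, 84 in EF_IGF1_xeno, 123 in Wt_IGF1 and 3, 72, 86 and 102 in Wt, with Wt replicate 1 far below every other library. These are 35.9%, 22.1%, 31.6% and 50.6% of the target regions in EF, 40.3% and 46.3% in EF_IGF1, 36.4% in EF_IGF1_xeno, 53.2% in Wt_IGF1 and 1.3%, 31.2%, 37.2% and 44.2% in Wt. Of all regions with a gene the same libraries called 32.6%, 17.6%, 33.4% and 43.9% in EF, 38.1% and 41.0% in EF_IGF1, 27.9% in EF_IGF1_xeno, 52.5% in Wt_IGF1 and 5.37%, 41.0%, 36.2% and 44.5% in Wt. The widest gaps lay above the share of all regions in EF_IGF1_xeno and below it in Wt replicate 2. Of the 71 regions called in both Wt replicates 3 and 4, Wt replicate 2 called 27 (38.0%, against 55.9% of all regions so called), whereas both EF_IGF1 libraries called 51 (71.8%, against 67.7%) and Wt_IGF1 called 70 (98.6%, against 97.8%). Wt replicate 2 alone called 31 target regions (13.4%, against 15.3% of all regions with a gene), 20 of them at Asap1. The 3 target regions called in Wt replicate 1 were 2 at Asap1 and one inside Axl.

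Secreted and membrane proteins came first in the set. Ccn1, a matricellular protein that binds integrins, had 7, 6, 10 and 12 called regions in EF, 10 and 10 in EF_IGF1, 9 in EF_IGF1_xeno, 11 in Wt_IGF1 and 0, 2, 8 and 11 in Wt. Ccn2, its relative also known as connective tissue growth factor, had 6, 4, 4 and 6 in EF, 4 and 5 in EF_IGF1, 5 in EF_IGF1_xeno, 8 in Wt_IGF1 and 0, 2, 7 and 8 in Wt. EF and Wt thus overlapped at both genes, and at Ccn2 the highest counts were in Wt_IGF1 and Wt replicate 4. The leading distal region of Ccn1 (chr3:145684724-145685728), centred −35241 bases from the start, was called in 10 libraries, all but Wt replicates 1 and 2. It ranked within the top 2.1% of EF replicate 4, the top 1.76% of EF_IGF1 replicate 1, the top 2.32% of Wt_IGF1 and the top 1.22% of Wt replicate 3. The distal region of Ccn2 at chr10:24554093-24554511, 40931 bp outside the gene, was called in the same 10 libraries, among them Wt_IGF1 in its top 3.73%.

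F3, tissue factor, which starts blood clotting, had 4, 2, 3 and 6 called regions in EF, 6 and 7 in EF_IGF1, 4 in EF_IGF1_xeno, 6 in Wt_IGF1 and 0, 3, 3 and 4 in Wt. Crim1, a membrane protein with cysteine-rich repeats that binds BMPs, had 11, 5, 8 and 10 in EF, 9 and 11 in EF_IGF1, 9 in EF_IGF1_xeno, 13 in Wt_IGF1 and 0, 6, 7 and 9 in Wt. Axl, the receptor tyrosine kinase for Gas6, had 3, 1, 3 and 5 in EF, 5 and 5 in EF_IGF1, 5 in EF_IGF1_xeno, 6 in Wt_IGF1 and 1, 4, 5 and 4 in Wt. EF overlapped Wt at all 3 genes. Both EF_IGF1 libraries lay above every Wt library at F3, and Wt_IGF1 had more called regions than any other library at Crim1 and Axl. Inside Axl one region (chr7:25776701-25777166) was called in Wt replicates 1 and 2 and in no other library, in the top 5.06% of Wt replicate 2 and the top 35.1% of Wt replicate 1. These are the 2 libraries that called hematopoietic marker regions above their share of all regions with a gene. The values were 65.0% against 41.0% in Wt replicate 2 and 8.13% against 5.37% in Wt replicate 1. The part of other cell types in this Axl region was not tested.

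Among the intracellular proteins, Ankrd1 had 4, 4, 5 and 12 called regions in EF, 10 and 10 in EF_IGF1, 8 in EF_IGF1_xeno, 7 in Wt_IGF1 and 0, 1, 5 and 5 in Wt. All 3 EF_IGF1 and EF_IGF1_xeno libraries and EF replicate 4 were above every Wt library, while the other EF libraries were within the Wt range. Its distal region centred −88228 bases from the start (chr19:36207525-36208619) was called in 10 libraries and was in the top 1.61% of EF_IGF1 replicate 2 and the top 1.45% of Wt replicate 4. Myof, a ferlin involved in membrane repair and fusion, had 14, 8, 13 and 17 in EF, 16 and 17 in EF_IGF1, 14 in EF_IGF1_xeno, 21 in Wt_IGF1 and 0, 14, 15 and 19 in Wt. Its region centred 27846 bases after the start (chr19:38015338-38016125) was called in 11 libraries and was among the strongest of the set, in the top 0.0776% of EF_IGF1 replicate 1, the top 0.101% of EF_IGF1 replicate 2 and the top 0.239% of EF replicate 4. In Wt_IGF1 and Wt replicates 2, 3 and 4 it was in the top 5.78%, 8.25%, 6.59% and 1.29%.

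The other 3 genes act on the pathway or the cytoskeleton. Ajuba, a LIM protein that restrains LATS kinases, had 4, 1, 3 and 5 called regions in EF, 5 and 5 in EF_IGF1, 4 in EF_IGF1_xeno, 5 in Wt_IGF1 and 0, 2, 3 and 4 in Wt. Ptpn14, a phosphatase that binds YAP and holds it in the cytoplasm, had 9, 5, 7 and 10 in EF, 3 and 5 in EF_IGF1, 4 in EF_IGF1_xeno, 16 in Wt_IGF1 and 0, 2, 12 and 10 in Wt. The 3 EF_IGF1 and EF_IGF1_xeno libraries were thus at or below every EF library and below Wt_IGF1 and Wt replicates 3 and 4 at Ptpn14. Asap1, an Arf GTPase-activating protein of focal adhesions, had 21, 15, 17 and 34 in EF, 25 and 32 in EF_IGF1, 22 in EF_IGF1_xeno, 30 in Wt_IGF1 and 2, 36, 21 and 28 in Wt, with Wt replicate 2 the highest.

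The first comparison sets EF cells against Wt cells. A region counted as gained with a call in 3 or 4 of the EF libraries and in none of the Wt libraries. Such regions numbered 5 of the 231 (2.16%, against 1.15% of all regions with a gene), and lost ones, by the mirrored rule, 3 (1.3%, against 0.979%). Because each list comes from many cells, fewer open cells and weaker opening per cell cannot be told apart, and an absent call is no proof of closed chromatin. Single regions were not tested, because calls in 4 and 4 libraries are too few to pass a correction over all regions. Gained were 2 regions of Crim1, centred −36761 and 98088 bases from the start, 1 of F3 at −11287, 1 of Ptpn14 at 49120, and 1 of Ccn2, 22438 bp outside the gene (chr10:24572480-24573004). All 5 were called in EF replicates 1, 3 and 4 and missed in EF replicate 2, so none remained when any 1 of those 3 libraries was left out. The Ccn2 region, for example, had authors' folds of 7.91, 5.5 and 7.3 in EF replicates 1, 3 and 4. Its folds were 5.1 and 7.3 in EF_IGF1 and 6.1 in EF_IGF1_xeno, with no peak in Wt_IGF1 or any Wt library. The F3 region was also called in Wt_IGF1, with a fold of 5.03, and was in the top 91.9% of EF replicate 3. The Crim1 region at −36761 was in the top 81.0%, 78.0% and 91.3% of EF replicates 1, 3 and 4. Lost were 2 regions of Asap1 and 1 of Myof, and a single one of these 3 was called in all 4 Wt libraries, at Asap1 (chr15:64242275-64243069), also called in Wt_IGF1 and in no EF, EF_IGF1 or EF_IGF1_xeno library.

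Flowcells gave different counts. Within BSF_0654, where Wt replicates 1 and 2 were the Wt libraries, 28 target regions were gained (12.1%, against 4.06% of all regions with a gene). Lost there were 2 (0.866%, against 0.516%). Within BSF_1013 8 were gained (3.46%, against 1.9%) and 13 lost (5.63%, against 4.4%). Called regions per gene were tested over the 70 orders of the 8 libraries for 16742 genes with an exact two-sided permutation test, whose smallest p is 0.0286. No gene of any kind passed after Benjamini-Hochberg adjustment (0.0%), and 51 (0.305%) had an unadjusted p under 0.05, none of them a target gene. An adjusted p under 0.05 would need most of the 16742 genes at that smallest p. The adjusted test could therefore hardly pass any gene, and nothing is concluded from it. The 4 EF libraries are of 2 lines, each on both flowcells, and the 70 orders ignore line and flowcell. With labels permuted within flowcells only, an alternative chosen after the data were seen, the 36 orders allow no exact p below 0.0556. Ankrd1 averaged 6.25 ± 3.86 called regions in EF against 2.75 ± 2.63 in Wt (n = 4 each, ± SD, exact permutation p = 0.286, or 0.167 within flowcells, adjusted p = 1.0). Ccn1 averaged 8.75 ± 2.75 in EF and 5.25 ± 5.12 in Wt (exact p = 0.343, or 0.111 within flowcells, adjusted p = 1.0). Ptpn14 averaged 7.75 ± 2.22 in EF and 6.0 ± 5.89 in Wt (exact p = 0.686, or 0.611 within flowcells, adjusted p = 1.0). The difference of means was above 0 for 8 of the 10 genes and for 42.7% of all genes tested. Its median was 1.12 over the 10 genes and 0 over all. These are raw counts, and the 10 genes have 6 to 79 regions each. Neither comparison with all genes therefore allows for the number of regions per gene. Without Wt replicate 1, which is at 0 for 8 of the 10, the difference was −0.667 for Ccn2, −3.0 for Myof and −0.25 for Ptpn14. It was then −6.58 for Asap1 and −1.33 for Axl, and above 0 for the other target genes. On BSF_0654 the difference was 4.0 for Ccn2, 6.0 for Ptpn14 and 4.0 for Myof, whereas on BSF_1013 it was −2.5, −2.5 and −2.0. Ankrd1 differed by 3.5 on both flowcells, but on BSF_1013 it had 5 and 12 called regions in EF against 5 and 5 in Wt, so that difference came from EF replicate 4.

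**Figure D2:**
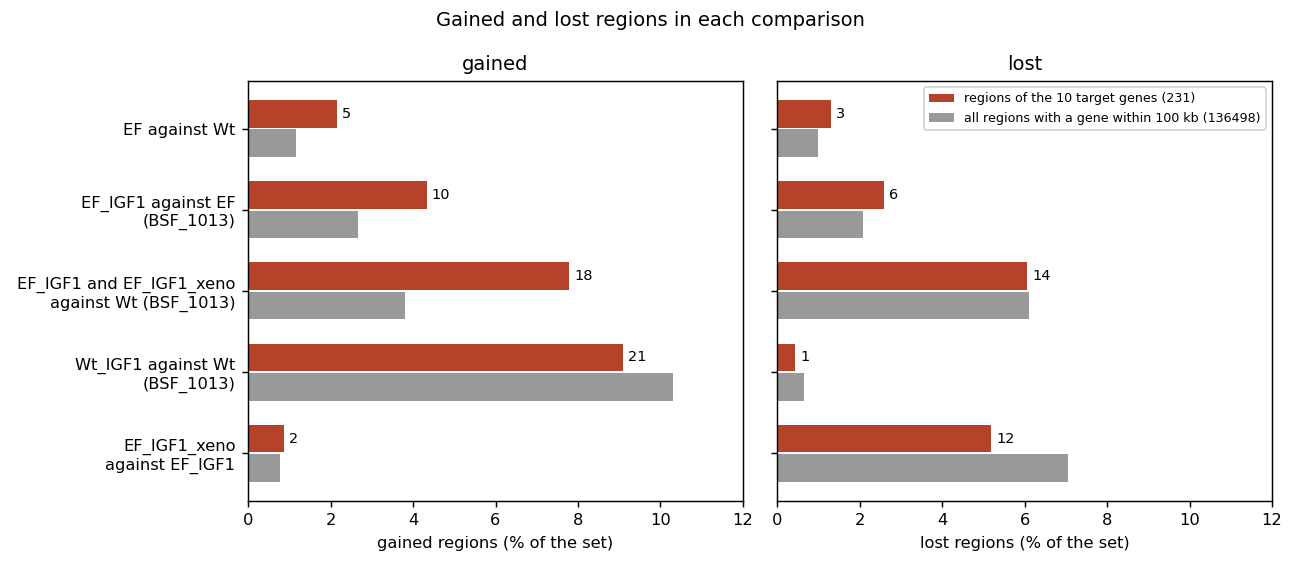
Gained (left) and lost (right) regions in each comparison, in percent of the 231 regions of the 10 target genes (red, number of regions beside the bar) and of all 136498 regions with a gene within 100 kb (grey). EF_IGF1 and EF_IGF1_xeno against Wt gained 18 target regions, 7.79% against 3.81%, and Wt_IGF1 against Wt gained 21, 9.09% against 10.3%.

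IGF1 in EF cells was compared with EF on the same flowcell, as regions called in 2 of 2 libraries against 0 of 2. Target regions gained numbered 10 (4.33%, against 2.66% of all regions with a gene) and lost 6 (2.6%, against 2.07%). Crim1 held 4 of the gained regions, Ankrd1 and F3 2 each, and Asap1 and Ccn1 1 each, while 2 lost regions lay at Asap1 and 1 each at Ankrd1, Ccn1, Myof and Ptpn14. At Ccn1 the gained region (chr3:145649050-145649602), centred 659 bases after the start and so just past the promoter window printed above, was called in both EF_IGF1 libraries and EF_IGF1_xeno and in no other library. It was a middling peak, in the top 50.3% and 52.5% of the EF_IGF1 lists and the top 58.5% of the EF_IGF1_xeno list, with authors' folds of 2.9, 2.9 and 3.1. F3 had the same pattern of calls at chr3:121724071-121724829, centred 913 bases after its start. That peak was in the top 63.7% and 88.4% of the EF_IGF1 lists and the top 68.25% of EF_IGF1_xeno. Ankrd1 gained a region centred 583 bases after its start, called in the EF_IGF1 libraries alone, in their top 55.9% and 89.5%. Crim1 had 2 regions called in the 3 EF_IGF1 and EF_IGF1_xeno libraries alone, centred 6287 and 48695 bases after the start. In EF_IGF1 replicate 2 they were in the top 97.55% and 83.3%. Without the library labelled S_220 the counts were 19 gained (8.23%, against 6.76% of all regions under that rule) and 6 lost (2.6%, against 2.79%). Without EF replicate 4, the longer EF list, they were 35 gained (15.2%, against 11.4%) and 15 lost (6.49%, against 9.64%). Within line names, where 1 library stands against 1, S_220 gave 40 gained (17.3%, against 16.7%) and 20 lost (8.66%, against 11.9%). S_221 gave 22 gained (9.52%, against 7.96%) and 32 lost (13.9%, against 10.9%).

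**Figure D3:**
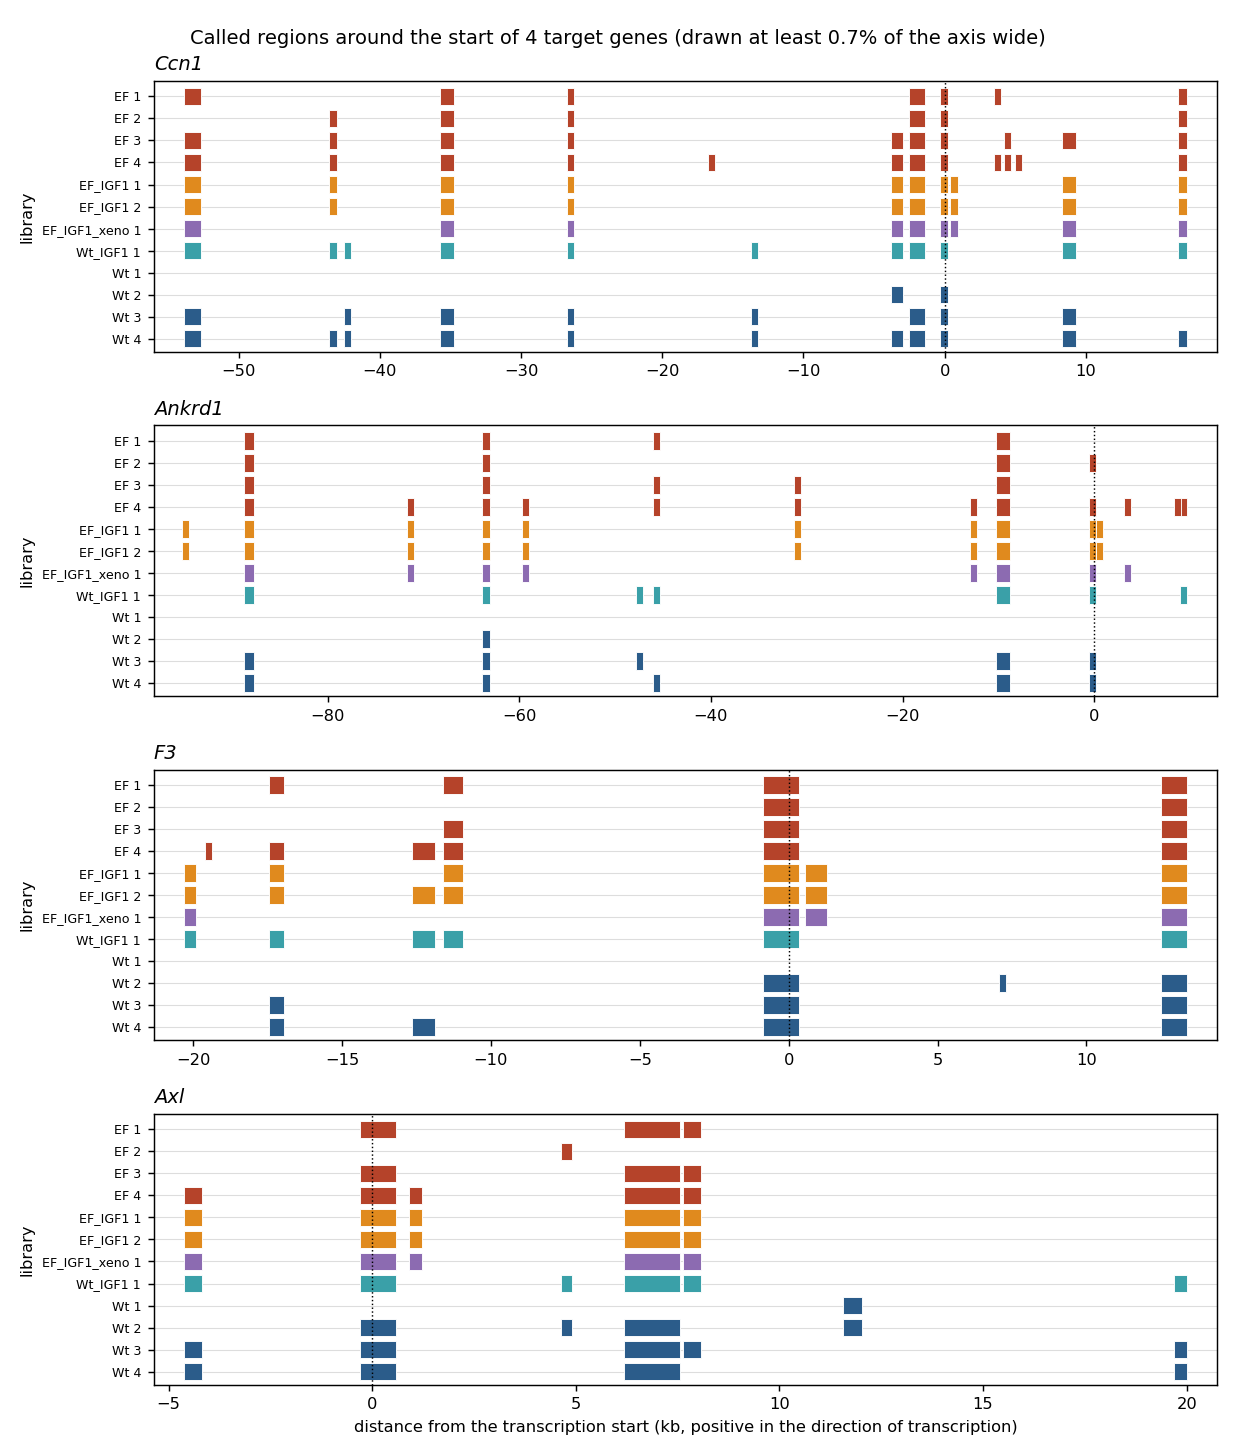
Called regions at Ccn1, Ankrd1, F3 and Axl in the 12 libraries (rows, by group and replicate), by distance from the transcription start in kb, positive in the direction of transcription. A block just right of the dotted start line is present in EF_IGF1 and EF_IGF1_xeno and absent in Wt_IGF1 and Wt. Its centre is 659 bases after the start of Ccn1, 913 of F3 and 1055 of Axl. The Axl block is also present in EF replicate 4, and the Ankrd1 block, at 583, is missing from EF_IGF1_xeno.

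Setting EF_IGF1 and EF_IGF1_xeno together (3 of 3 called) against Wt on the same flowcell (0 of 2) gave 18 gained target regions (7.79%, against 3.81% of all regions with a gene). The mirrored rule gave 14 lost (6.06%, against 6.11%), a share close to that of all regions. Cell type marker regions were also gained and lost in the same comparison, beside 3.81% and 6.11% of all regions with a gene. Of 36 regions of 5 epithelial marker genes 7 were gained (19.4%: 4 at Krt18, 2 at Krt8 and 1 at Cdh1) and 2 lost (5.56%). Of 123 hematopoietic marker regions 3 were gained (2.44%) and 12 lost (9.76%). Of 39 smooth muscle and pericyte marker regions 2 were gained (5.13%) and 4 lost (10.3%). Mesenchymal marker regions were gained at 4.26% and lost at 7.75%, endothelial ones at 1.23% and 4.94%. Of 15 skeletal muscle marker regions 0 were gained and 0 lost. Wt_IGF1 against Wt also gained 7 of the 36 epithelial marker regions (19.4%, against 10.3% of all regions). The part of other cell types in the target counts was not tested. Gained regions fell at 9 of the 10 genes, with 3 each at Ankrd1, Asap1 and Crim1, 2 each at Ajuba, F3 and Myof and 1 each at Axl, Ccn1 and Ccn2. Ptpn14 had none gained. The Ankrd1 regions were all upstream, centred −12626, −59353 and −71411 bases from the start, and each was also called in EF replicate 4 and in no other EF library. The strongest was at Myof (chr19:37831332-37831830), 67206 bp outside the gene, in the top 16.4% and 26.2% of the EF_IGF1 lists, the top 29.6% of EF_IGF1_xeno and the top 34.5% of EF replicate 4. Ajuba's 2 gained regions were centred 1875 and 14853 bases after its start, and the Axl region at 1055.

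Lost regions in this comparison lay at Asap1, Ccn2 and Ptpn14 (3 each), Ccn1 and Myof (2 each) and Axl (1). At Ptpn14 the region centred 124433 bases after the start (chr1:189852455-189852947) was called in Wt_IGF1 and Wt replicates 3 and 4 alone, in their top 15.5%, 6.53% and 17.4%. Another region of Ptpn14, at 72160 (chr1:189800076-189800781), did not meet the rule for lost regions. It was called in all 4 EF libraries, EF_IGF1 replicate 2, Wt_IGF1 and Wt replicates 3 and 4, and was missing in EF_IGF1 replicate 1 and EF_IGF1_xeno. All 3 lost Ccn2 regions were called in Wt_IGF1 and both Wt libraries, and the one inside the gene (chr10:24596334-24597469) also in EF replicate 4. With a call in all 4 Wt libraries required, 1 region was lost (0.433%, against 0.139%). Without the library labelled S_220 the counts were 19 gained (8.23%, against 4.23%) and 14 lost (6.06%, against 6.65%). Without Wt replicate 3 the lost regions numbered 30 (13.0%, against 14.1%), and without Wt replicate 4 they numbered 26 (11.3%, against 10.5%).

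**Figure D4:**
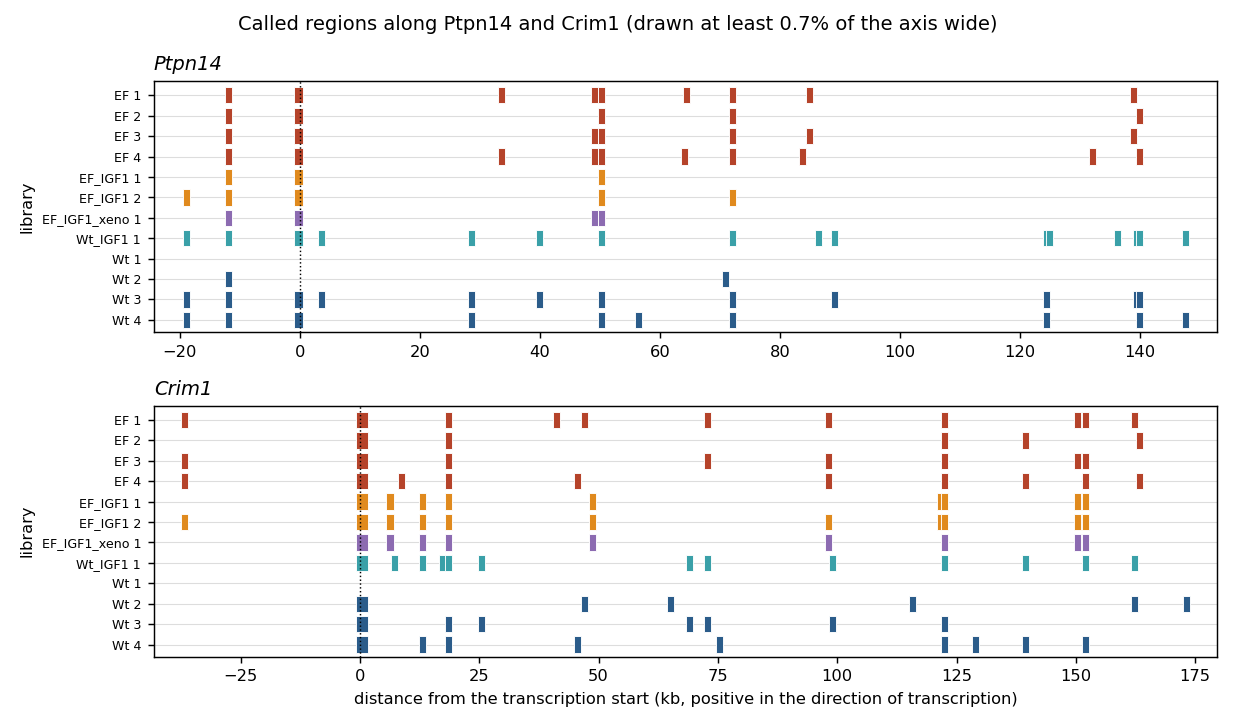
Called regions along Ptpn14 and Crim1 in the 12 libraries (rows, by group and replicate), by distance from the transcription start in kb. Ptpn14 has 3, 5 and 4 blocks in EF_IGF1 and EF_IGF1_xeno, against 16 in Wt_IGF1 and 12 and 10 in Wt replicates 3 and 4; Crim1 has blocks at 6 and 49 kb in EF_IGF1 and EF_IGF1_xeno alone.

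IGF1 in Wt cells was represented by 1 library against Wt on the same flowcell, with no replicate, and the title BM is shared with Wt replicate 3. Target regions gained numbered 21 (9.09%, against 10.3% of all regions with a gene) and lost 1 (0.433%, against 0.639%), so both shares were close to the background. The library listed more peaks than any other, and the part of list length in the gained count was not tested. Asap1 held 9 of the gained regions, and Crim1 and Ptpn14 3 each. F3 gained 2, at −20115 and −11287, and the first was also called in both EF_IGF1 libraries and EF_IGF1_xeno and in no EF or Wt library. None of the regions just past the starts of Ccn1, F3 and Axl was called in Wt_IGF1.

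EF_IGF1_xeno, also 1 library, was set against EF_IGF1. It gained 2 target regions (0.866%, against 0.785% of all regions with a gene), one each at Ankrd1 and Ptpn14, and lost 12 (5.19%, against 7.05%). Its list of 43416 peaks is shorter than the EF_IGF1 lists of 59325 and 63506. With the top 20000 peaks of each library the direction turned, to 7 gained (7.87%, against 3.5%) and 0 lost (against 2.69%). The 12 lost regions were spread over 7 genes, with 3 each at Ankrd1 and Asap1 and 2 at F3. Of the 88 target regions called in both EF_IGF1 libraries, EF_IGF1_xeno called 76 (86.4%, against 77.8% of all regions so called). The gained Ptpn14 region, centred 49120 bases after the start (chr1:189777189-189777587), was the one that EF replicates 1, 3 and 4 called and EF_IGF1 did not. Against EF_IGF1 replicate 2 alone, of the same line name, 4 regions were gained (1.73%, against 1.9%) and 27 lost (11.7%, against 15.0%).

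Other genes of the pathway were counted by the same rules, from lists chosen by name. Each share below is of the list's regions and stands against the share of all regions with a gene. For 13 further genes of YAP and TAZ signatures (274 regions), EF gained 2 (0.73%, against 1.15%) and lost 1 (0.365%, against 0.979%) relative to Wt. EF_IGF1 gained 6 (2.19%, against 2.66%) and lost 10 (3.65%, against 2.07%) relative to EF. EF_IGF1 with EF_IGF1_xeno gained 15 (5.47%, against 3.81%) and lost 35 (12.8%, against 6.11%) relative to Wt. In that comparison Amotl2, an angiomotin that binds YAP, and Ccdc80, a matrix protein, gained 3 and lost 1 each, and Rbms3, an RNA-binding protein, held 17 of the 35 lost regions. Wt_IGF1 gained 39 (14.2%, against 10.3%), 23 of them at Rbms3, and lost 6 (2.19%, against 0.639%). EF_IGF1_xeno gained 0 (against 0.785%) and lost 10 (3.65%, against 7.05%) relative to EF_IGF1.

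For 16 genes of the Hippo machinery (225 regions), EF gained 7 (3.11%, against 1.15%) and lost 2 (0.889%, against 0.979%) relative to Wt. EF_IGF1 gained 7 (3.11%, against 2.66%) and lost 4 (1.78%, against 2.07%) relative to EF. EF_IGF1 with EF_IGF1_xeno gained 13 (5.78%, against 3.81%) and lost 14 (6.22%, against 6.11%) relative to Wt. There Amotl1, another angiomotin, gained 5 regions and lost none, Yap1 gained 2 and lost 4, Wwtr1 gained 2, and Vgll4, a TEAD cofactor that competes with YAP, gained 1 and lost 4. Wt_IGF1 gained 29 (12.9%, against 10.3%) and lost 3 (1.33%, against 0.639%), and EF_IGF1_xeno gained 2 (0.889%, against 0.785%) and lost 15 (6.67%, against 7.05%) relative to EF_IGF1.

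Called regions per 10000 called regions of a library gave a pattern over the 12 libraries for each gene. With the sum of the other 9 target genes the correlation was highest for Myof (r = 0.92), Crim1 (0.9) and Ccn1 (0.847), lower for Ptpn14 (0.43) and Asap1 (0.421) and below 0 for Axl (−0.472). Of 5798 other genes with 8 or more regions, Ddr1 (r = 0.96), Ier3 (0.959), Rusc2 (0.957), Ephx1 (0.956) and Loxl4 (0.955) had the most similar pattern to the 10 genes together. These values describe 12 libraries that share lines and flowcells, and Wt replicate 1, near 0 for most of these genes, weighs heavily in them.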

How the data were processed

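The 12 deposited peak lists, 1 per library, were used as the authors made them. For every peak the authors gave positions, a fold or ratio over local background, the p-value and q-value as −log10, and a score equal to the −log10 q multiplied by 10. These authors' values served only for ranking, filtering and describing peaks inside one list, and the lowest −log10 q was between 2.03 and 2.6. The submitters' processing notes name MACS2 and GRCm38.p3. Aligner, filters on reads, transposase shift, options of the caller and read totals were not given in the sources used here. Depth was therefore unknown, and the number of peaks, which need not follow depth, is given in its place.

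Peaks of chromosomes 1 to 19 and X were merged and assigned to RefSeq protein-coding genes (GRCm38.p6, which shares chromosome coordinates with p3). The target genes and the other lists were chosen with earlier results of these data known. All 10 target genes were named; their regions given in full were the most widely called one and, per comparison and direction, up to 2 with the highest −log10 p, and others described were chosen after their values were seen. Replicate numbers follow accession order. Calls were compared by counts beside all regions, and called regions per gene by an exact permutation test with Benjamini-Hochberg adjustment, in Python 3.11.15 with numpy 2.4.6 and pandas 2.3.3, checked on simulated data. Stricter peaks, the top 20000 peaks, summit windows of 250 bp each side, 50% cover, a 20 kb distance, flowcells, lines and each library left out were tried.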

Additional observations from a re-analysis of the deposited data

Results flagged for a closer look

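Ankrd1 had 12 called regions in EF replicate 4, against 4, 4 and 5 in the other EF libraries. This gap is above Dixon's 95% critical value for a group of 4. For normal values, chance alone exceeds that value in about 1 in 20 groups. Here the values are small whole counts, picked from those of 10 genes, so that rate does not carry over to them. EF replicate 4 also listed the most peaks of the EF libraries, and the part of list length was not tested.

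Ccn2 differed in direction between flowcells. The mean difference of called regions, EF minus Wt, was 4.0 on BSF_0654 and −2.5 on BSF_1013, and the difference between flowcells was not tested.

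Counts of called regions at Ptpn14 differed in direction between the IGF1 pairs of the 2 backgrounds. EF_IGF1 had 4 fewer called regions than EF in line S_220 (−4.0) and 5 fewer in S_221 (−5.0), while Wt_IGF1 had 4.0 more than Wt replicate 3, which shares its title. Of all regions with a gene, Wt_IGF1 called 52.5% against 36.2% in Wt replicate 3, so its count rose beside a longer list. EF_IGF1 called 38.1% against 33.4% in S_220 and 41.0% against 43.9% in S_221. The S_220 pair rests on EF_IGF1 replicate 1, which shared more target regions with EF replicate 4 of line S_221. Each pair is 1 library against 1, and neither the difference nor the part of list length was tested.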

How the results depend on the processing

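Over all alternatives 62 counts of gained or lost target regions stayed within 1.5 times their value and 46 did not; the cause was not tested. Brackets give the share of the target regions, against that of all regions with a gene under the same setting. The top 20000 peaks of each library, or all 7723 of Wt replicate 1, held 89 target regions. EF against Wt then gave 3 gained (3.37%, against 2.44%) and 0 lost (against 0.778%). EF_IGF1 against EF gave 3 (3.37%, against 2.94%) and 2 (2.25%, against 1.65%). EF_IGF1 with EF_IGF1_xeno against Wt gave 11 (12.4%, against 6.15%) and 5 (5.62%, against 5.77%). Wt_IGF1 against Wt gave 4 (4.49%, against 4.4%) and 3 (3.37%, against 2.69%). EF_IGF1_xeno against EF_IGF1 gave 7 (7.87%, against 3.5%) and 0 (against 2.69%). Asking for 50% cover gave 11 gained for EF against Wt (4.76%, against 1.1%). It gave 3 lost for Wt_IGF1 (1.3%, against 0.799%) and 26 lost for EF_IGF1_xeno (11.3%, against 8.43%). A 20 kb distance left 193 target regions and gave 3 gained in EF (1.55%, against 1.11%). EF against Wt gave 8 gained (3.46%, against 1.9%) and 13 lost (5.63%, against 4.4%) within BSF_1013. It gave 28 gained (12.1%, against 4.06%) within BSF_0654 and 11 (4.76%, against 2.45%) with the EF libraries merged by line. EF_IGF1 against EF gave 22 gained (9.52%, against 7.96%) and 32 lost (13.9%, against 10.9%) in line S_221. In S_220 it gave 40 (17.3%, against 16.7%) and 20 (8.66%, against 11.9%). Against all 4 EF libraries 0 were lost (against 0.234%). Against all 4 Wt libraries, EF_IGF1 with EF_IGF1_xeno lost 1 (0.433%, against 0.139%) and Wt_IGF1 lost 0 (against 0.00879%).

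Leaving out 1 library gave 0 to 11 gained and 1 to 4 lost in EF against Wt. There were 0 gained without EF replicate 1, 3 or 4 (against 0.204%, 0.341% and 0.175%). There were 11 gained without Wt replicate 4 (4.76%, against 2.42%). Without Wt replicate 2, 3 or 4 there was 1 lost (0.433%, against 0.0601%, 0.0864% and 0.0982%). EF_IGF1 against EF gave 13 to 35 gained and 6 to 30 lost. The gained numbered 19 (8.23%, against 6.76%) without EF_IGF1 replicate 1. Without EF replicate 4 there were 35 gained (15.2%, against 11.4%) and 15 lost (6.49%, against 9.64%). The lost numbered 11 (4.76%, against 3.67%) without EF_IGF1 replicate 2 and 30 (13.0%, against 8.41%) without EF replicate 3. EF_IGF1 with EF_IGF1_xeno against Wt gave 19 to 27 gained and 14 to 30 lost. The lost numbered 30 (13.0%, against 14.1%) without Wt replicate 3 and 26 (11.3%, against 10.5%) without Wt replicate 4. Wt_IGF1 gave 35 gained (15.2%, against 15.5%) and 14 lost (6.06%, against 7.56%) without Wt replicate 3. Without Wt replicate 4 it gave 39 (16.9%, against 18.2%) and 2 (0.866%, against 1.97%). EF_IGF1_xeno gave 4 gained (1.73%, against 1.9%) and 27 lost (11.7%, against 15.0%) without EF_IGF1 replicate 1. Without EF_IGF1 replicate 2 it gave 6 (2.6%, against 1.98%) and 15 (6.49%, against 12.2%). Fewer libraries loosen a rule that asks for all of them, so in these 4 comparisons the counts can only stay or grow. Genes with an adjusted p under 0.05 numbered 0 under every setting. The smallest p that so few libraries allow all but fixed that outcome, so it is no measure of stability. Genes with an unadjusted p under 0.05 numbered 51, against 690 with each count taken per 10000 called regions of its library and 239 with the top 20000 peaks. Of the target genes Crim1 alone was among them, higher in EF at an exact permutation p of 0.0286 in both settings (adjusted p = 0.693 per 10000). Ankrd1 and F3 had 0.0571 per 10000 called regions. Without 1 library 43 to 575 genes were under 0.05, the highest without Wt replicate 1, with 250 without EF replicate 2 and 100 without Wt replicate 4. For EF minus Wt, Axl turned to 0.5 with the top 20000 peaks and 0.167 without EF replicate 2, Ccn2 to −0.25 at 20 kb and −0.667 without Wt replicate 1, Myof to −0.333 without EF replicate 4 and −3.0 without Wt replicate 1, and Ptpn14 to −0.25 without Wt replicate 1. Without 1 library these differences ran from −1.33 to 0.167 for Axl, −0.667 to 2 for Ccn2, −3 to 3.33 for Myof and −0.25 to 3.75 for Ptpn14. With labels permuted within each flowcell, an alternative chosen after the data were seen, 0 genes had an unadjusted p under 0.05, since the smallest p of that design is 0.0556. No paired analysis was possible because replicate numbers, which are in accession order, only name the libraries; flowcells and lines were used in its place, as given above.

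Precision is limited by single libraries in EF_IGF1_xeno and Wt_IGF1, by 2 in EF_IGF1 and by list length, since a region under a list's threshold counts as uncalled.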

Other observations

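Regions gained just past a start recurred in the set. Regions gained in EF_IGF1 and EF_IGF1_xeno against Wt on BSF_1013, with a midpoint 300 to 2500 bases after the start, were found at Ajuba, Axl, Ccn1 and F3, 4 of the 8 target genes with a known start. Of all 17273 genes with a known start, 186 (1.08%) had such a region. Lost regions in the same window were found at 0 of the 8 and at 205 genes (1.19%). The window was chosen after these regions had been seen and no test was made. At Ajuba the region was also called in EF replicates 1 and 4 and at Axl in EF replicate 4, while at Ccn1 and F3 no EF library called it. The Axl peaks were in the top 88.0% and 75.5% of the EF_IGF1 lists and the top 76.0% of EF_IGF1_xeno. Those of Ajuba were in the top 83.2%, 63.0% and 42.3% of the same lists. The Ccn1 and F3 regions lay beside start regions called in 11 libraries (chr3:145649730-145650315 and chr3:121722658-121723883).

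Regions called in both EF_IGF1 libraries and EF_IGF1_xeno and in no Wt or Wt_IGF1 library numbered 13 (5.63%) of the target regions and 2.48% of all regions with a gene.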
